A study of Mus musculus with 6 samples.

Results

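Mural2 is 1 of 38 clusters that the authors annotated in single cells of the adult mouse olfactory bulb, and its cells carry mural, mostly pericyte, transcripts. Its members were taken as all cells with that cluster name in the deposited annotation, which gave 769 of 51426 annotated cells (1.495%, Wilson 95% interval 1.39–1.60%). The study profiled dissociated bulbs with a droplet assay that counts transcript 3′ ends by unique molecular identifiers (UMIs), to ask how cell composition and expression respond to olfactory activity. Each of the 6 libraries was a pool of 3 C57BL/6NJ mice, 14 weeks old, and each condition had 2 libraries. Library 1 of each condition pooled males and library 2 pooled females. The control mice had no manipulation according to the labels, and the study's text speaks both of naive controls and of the open side of occluded mice as control, so the origin of the control bulbs is not settled here. Occluded mice had 1 naris plugged for 6 weeks, and trained mice learned an olfactory discrimination task for 6 weeks. The study's methods describe the trained mice as water deprived and rewarded with water, and state no such deprivation for the other groups. Training and water deprivation therefore cannot be told apart here. All groups were wild type, and some olfactory epithelium was carried along in the dissection. A p-value below therefore measures the spread between pools of mice, and sex, pool and preparation cannot be told apart within a condition.

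Mural cells are the contractile and supporting cells on the outer face of the endothelial tube. Pericytes lie on capillaries within the basement membrane that they share with the endothelium, depend on PDGF-B from endothelial cells through the receptor PDGFRβ, and take part in keeping the blood-brain barrier and in setting capillary tone. Smooth muscle cells wrap arterioles and arteries, hold actin, myosin and calponin for contraction, and carry the same receptor.

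The 6 libraries held 6705–10570 annotated cells and 11841160–17065083 UMIs. Mural2 contributed 146 and 126 control cells, 87 and 174 occluded cells, and 127 and 109 trained cells by library. The summed depth behind these cells was 227579 and 219400 UMIs in control, 149388 and 233201 in occluded and 169951 and 173486 in trained libraries. A Mural2 cell held a median of 1349 UMIs and 806 genes, with 9.49% mitochondrial UMIs, and 199 cells (25.9%) held under 1000 UMIs. The other mural cluster, Mural1, had 158 cells at a median of 3508 UMIs, 2.60 times the Mural2 median. Levels below are CPM, the UMIs of a gene after scaling the UMIs of the Mural2 cells of a library to 1000000, given as mean ± SD over the 6 libraries. Because the assay counts transcript ends, CPM is not scaled by transcript length. No barcode occurred as Mural2 in more than 1 library, although 30 Mural2 cells had a barcode that was also found elsewhere in another library. For all 17275 annotated cells of the trained libraries the start of the cell name contradicted the library column. The column was followed, and the Xist and Ddx3y counts given below go with it.

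The name of the cluster was set beside its markers. The study itself describes its mural clusters as positive for Pdgfrb, so this gene is no independent check of the name. Pdgfrb, the receptor given as the mural marker, stood at 1353 and 1203 CPM in control, 1305 and 1162 CPM in occluded and 1129.7 and 1372 CPM in trained libraries. The lowest of these 6 values lay above the mean of every other cluster, with Mural1 at 668 ± 149 CPM and Mes1, a mesenchymal cluster, next at 109.6 ± 37.3 CPM. Cluster names are those of the deposited annotation, in which Mes1 and Mes2 hold the cells that the study's own cell counts list under each other's name. A Pdgfrb UMI was found in 75.8% of Mural2 cells, against 17.5% of Mes1, 16.9% of Astro1 and 1.66% of EC1 cells. Cspg4, the NG2 proteoglycan of mural cells and oligodendrocyte precursors, was at 334 ± 46.9 CPM, against 254 ± 27.3 CPM in the precursors. Mcam, an adhesion molecule, was at 191 ± 53.3 CPM. Of 28 genes of pericyte identity, all of them in the count table, 24 had a higher mean in Mural2 than in every cluster other than Mural1, as did 678 of all 18560 genes (3.65%) at any level. The gene lists were chosen with earlier results of these data known, so this count does not test the name. Because the clusters were made from these same values, this and the following comparisons between clusters are descriptions without a test.

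The 25 genes with the largest ratio of Mural2 to the mean of all clusters outside the 2 mural ones were 5.17 to 7.73 higher on the log2 scale (CPM plus 5). Each of the 25 was above every cluster but Mural1 in all 6 libraries, which 140 of 1600 genes of at least 100 CPM also met (8.75%). The order began with Higd1b, Acta2, Ndufa4l2, Atp13a5, Tagln, Kcnj8, Cox4i2 and Tbx3os1. It went on with Aspn, Myl9, Rgs5, Gm13861, Gper1, Abcc9, Pdgfrb, Slc38a11, Myh11, Notch3 and Ifitm1, and ended with Gja4, Sod3, Tpm2, Foxs1, Pth1r and P2ry14. Pericyte genes and smooth muscle genes thus stood side by side in the list. Tbx3os1 is an antisense transcript, and the sources used here do not state whether counting used strand, so its level is uncertain.

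**Figure D1:**
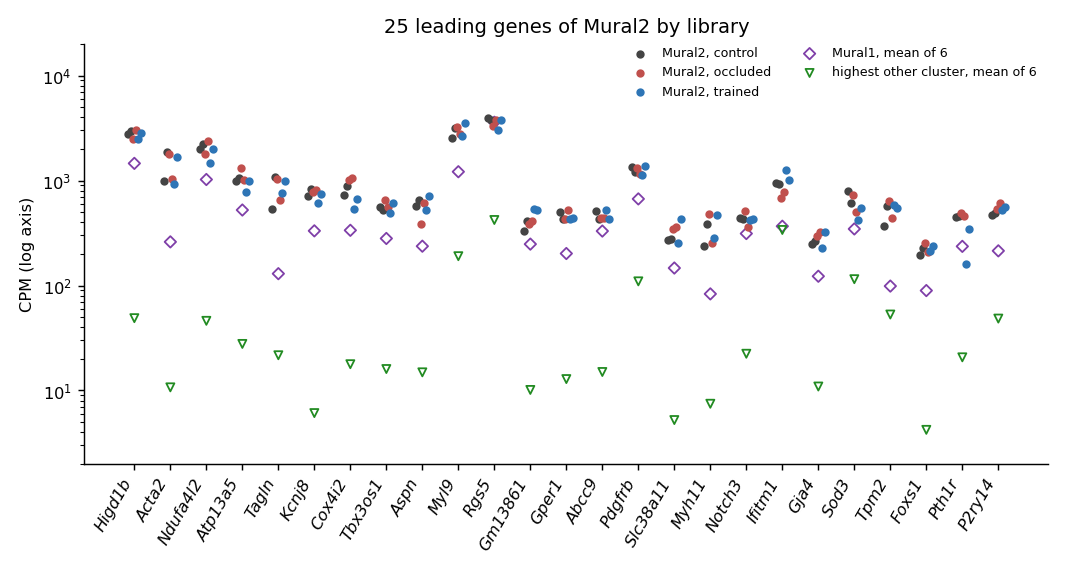
CPM (log axis) of the 25 genes with the largest ratio of Mural2 to the clusters outside the mural ones. Points are the 6 Mural2 libraries coloured by condition, diamonds the Mural1 mean over 6 libraries and triangles the highest mean of any other cluster. The Mural2 points lie above the triangle for every gene, and Rgs5 is the gene whose points sit on the Mural1 diamond.

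Higd1b, Ndufa4l2 and Cox4i2 encode alternative forms of mitochondrial proteins, and in each case Mural2 cells held the member of a pair that was rare outside the vascular clusters. Higd1b, of the hypoxia-inducible domain family, was at 2799 and 2976 CPM in control, 2463 and 3006 CPM in occluded and 2471 and 2807 CPM in trained libraries. It made up 93.2% ± 1.81 of the UMIs of Higd1b and Higd1a together in Mural2, 85.7% in Mural1, 14.4% in the endothelial cluster EC1 and 2.61% in the cells outside the mural and endothelial clusters. Ndufa4l2, the paralogue of the cytochrome c oxidase subunit Ndufa4, made up 82.0% ± 5.74 of its pair, from 72.3% in trained library 1 to 87.8% in occluded library 2. Its share was 65.1% in Mural1, 3.78% in EC1 and 0.352% in the cells outside these vascular clusters. Cox4i2, the alternative subunit 4 of cytochrome c oxidase, made up 37.3% ± 7.83 of its pair against 22.6% in Mural1 and 0.255% in the cells outside the vascular clusters, and trained library 1 was again the lowest at 23.9%. Cox4i1, the common partner of Cox4i2, was at 1359 ± 186 CPM in Mural2, so here both members were present.

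Genes of ion flow and vascular tone were the next group. Kcnj8 encodes the pore and Abcc9 the regulatory subunit of the vascular ATP-sensitive potassium channel. Kcnj8 was at 712 and 825 CPM in control, 769.8 and 819 CPM in occluded and 606 and 744 CPM in trained libraries, against 332 ± 127 CPM in Mural1 and 6.09 CPM in the next cluster, N11. Abcc9 was at 464 ± 43.7 CPM, and its paralogue Abcc8 supplied almost none of the UMIs of the pair in Mural2, with Abcc9 at 99.7%, as against 100% in Mural1. Its share was 97.9% in EC1, from 9.07 CPM of Abcc9 and 0.27 CPM of Abcc8. In the cells outside the vascular clusters it was 45.2%, from 1.22 and 1.50 CPM. Shares at such low levels rest on few UMIs. A Kcnj8 UMI was found in 54.2% of the Mural2 cells, against 55.1% of Mural1, 0.872% of EC1 and 0.766% of Mes1 cells. Mural1 cells were deeper, at a median of 3508 UMIs against 1349 UMIs in Mural2. After thinning every cell to 500 UMIs the Kcnj8 shares were 29.5% in Mural2, 15.8% in Mural1, 0.238% in EC1 and 0.153% in Mes1. Rgs5, which shortens G-protein signals, was at 3600 ± 357 CPM in Mural2 and 3592 ± 763 CPM in Mural1, with EC1 next at 421 CPM. The nitric oxide receptor subunits Gucy1a3 (468 ± 67.3 CPM) and Gucy1b3 (443 ± 85.8 CPM) and the endothelin receptor Ednra (145 ± 22.9 CPM) were present, whereas the angiotensin receptor Agtr1a had 0 UMIs. Casq2, which buffers calcium in the sarcoplasmic reticulum, was at 145 ± 36.1 CPM. Of 33 channel and vasoactive receptor genes in the table, 14 were higher in Mural2 than in every cluster but Mural1, as were 3.65% of all genes. Among other receptors, the estrogen receptor Gper1 was at 458 ± 40.8 CPM and the UDP-glucose receptor P2ry14 at 534 ± 51.8 CPM. The parathyroid hormone receptor Pth1r ranged from 159 CPM in trained library 1 to 495 CPM in occluded library 1, with the other 4 libraries at 346 to 460.4 CPM.

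Receptor and ligand genes of the signals between endothelium and mural cells were divided between the clusters. Pdgfrb was in Mural2, while its ligand Pdgfb was at 10.8 ± 4.48 CPM there and at 135 ± 25.9 CPM in EC1. Tek, the angiopoietin receptor of endothelium, was at 11.8 CPM in Mural2 and 278 CPM in EC1, and Id1, a target of BMP signals, was at 75.5 CPM against 1600.0 CPM. Of 24 genes of PDGF, TGF-beta and angiopoietin signalling, Pdgfrb and the sphingosine receptor S1pr3 (247 ± 18.5 CPM) were higher than in every cluster but Mural1, as were 3.65% of all genes. In the Notch pathway, the mural receptor Notch3 stood at 432 ± 47.3 CPM with Mural1 at 313 CPM and Astro1 next at 22.4 CPM. Its target Heyl was at 290.0 and 292 CPM in control, 288 and 253 CPM in occluded and 165 and 190.2 CPM in trained libraries. Both trained values of Heyl were the lowest of the 6, with a log2 fold change against control of −0.74 that did not pass (edgeR adjusted p = 0.690). Jag1 (157 ± 34.1 CPM), a Notch ligand, and Notch1 (153 ± 23.8 CPM) were also above the clusters outside Mural1 on average, and 4 of 17 Notch genes ranked so.

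The 32 basement membrane and matrix genes summed to 23012 ± 2848 CPM in Mural2 and 13716 ± 1149 CPM in Mural1. Vtn, vitronectin, an adhesive glycoprotein, was at 11649 and 11381 CPM in control, 12913 and 10759 CPM in occluded and 6849 and 11084 CPM in trained libraries. A Vtn UMI was found in 91.0% of Mural2 cells, against 62.5% of Mes1 and 11.8% of EC1 cells. Trained library 1 stood below the other 5 in CPM of Vtn, and these overlapped one another. Mural1 was at 4234 CPM, and OEC2, a cluster of olfactory ensheathing cells, was next at 2423 CPM. Igfbp7, an insulin-like growth factor binding protein of vessels, was at 5049 ± 362 CPM, with EC1 at 2371 CPM. Mgp, a calcification inhibitor, was at 2095 ± 569.8 CPM, below Mes2 at 8761 CPM. Col4a1 (305 ± 95.04 CPM) and Lamc3 (125 ± 21.5 CPM), both of basement membrane, were at 356 and 98.5 CPM in Mural1. Of 32 matrix genes, 13 were higher than in every cluster but Mural1, against 3.65% of all genes, and Col15a1 and Fbln5 had 0 UMIs.

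Some transporter genes were shared with the mesenchymal clusters. Slc6a20a, a proline transporter, was at 479 ± 106 CPM against 763 CPM in Mes1. Slc6a13, a GABA and taurine transporter, was at 142 ± 33.5 CPM against 1174 CPM in Mes1. The folate carrier Slc19a1 was different, at 645 ± 116 CPM against 103 CPM in Mes1. Of 25 transporter genes, 4 were higher in Mural2 than in every cluster but Mural1. Of 33 interferon and chemokine genes, 4 ranked so, among them Ifitm1 (939 ± 202 CPM) and Il34 (354 ± 31.0 CPM), a ligand of the CSF1 receptor. In that list Il6, Ccl7, Lcn2 and C3 had 0 UMIs. Of the hypoxia and glycolysis genes 3 of 30 ranked so, of the immediate early and stress genes 1 of 38 measured, and of the clock and glucocorticoid genes 1 of 29 measured. Over all genes the share that ranked so was 3.65%, and the counts of 1 lay near it.

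Markers of other cell types, summed over each list, reached in Mural2 a small part of their sum in the cluster where it was highest. The 8 endothelial markers summed to 505 ± 154 CPM (236–679), 2.46% of the sum in EC1. The microglial sum was 413 ± 222 CPM (109.8–686), 1.60% of that in MicroG2, and the fibroblast sum was 267 ± 22.4 CPM, 8.27% of that in Mes1. Sums for astrocyte (619.8 CPM), olfactory ensheathing (2492 CPM), oligodendrocyte (1169 CPM) and neuron markers (1386 CPM) were 6.40%, 6.05%, 7.26% and 9.87% of those in the cluster with the highest sum. Red blood cell markers summed to 63.4–422 CPM. In Mural1 the sums were lower for olfactory ensheathing (803 CPM), neuron (766 CPM), oligodendrocyte (635 CPM), astrocyte (285 CPM), microglial (163 CPM) and fibroblast markers (153 CPM). They were higher in Mural1 for red blood cell markers (6860 ± 16588 CPM) and for endothelial markers.

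Mural2 held far fewer endothelial transcripts than Mural1. The endothelial sum was 11821 ± 769 CPM in Mural1, and each of its 158 cells held at least 3 endothelial UMIs, against 58 of 769 Mural2 cells (7.54%). After thinning every cell to 500 UMIs these shares were 87.3% and 1.56%. The 10 genes furthest below Mural1 were Pglyrp1, Ly6a, Slco1a4, Abcb1a, Ly6c1, Hmcn1, Itm2a, Cdh5, Ptprb and Sox18, by −5.60 to −4.75 on the log2 scale. All 10 had their highest mean in EC1, and they include Slco1a4 and Abcb1a, transporters of the blood-brain barrier, and the junction cadherin Cdh5. Slco1a4 was at 46.4 CPM in Mural2 and 2025 CPM in Mural1.

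The 10 genes furthest above Mural1 in all 6 libraries were Tagln, Acta2, Tpm2, Myh11, Jam3, Saa1, C1qtnf2, Gsn, Notch2 and Mustn1, by 3.81 to 1.95 on the log2 scale. The first 4 encode proteins of the smooth muscle contractile apparatus. Of the 25 leading genes, 22 were above Mural1 in all 6 libraries, with Rgs5 above in 3 and Abcc9 and Notch3 in 5. Of 2019 genes of at least 100 CPM in either cluster, 363 were above Mural1 in 6 libraries (18.0%) and 476 below (23.6%). The pericyte identity genes summed to 31848 ± 3483 CPM in Mural2 and 17242 ± 2177 CPM in Mural1. CPM is a share of all UMIs, and Mural1 cells were deeper and held more endothelial UMIs. These sums therefore do not rank the 2 clusters by pericyte UMIs per cell.

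**Figure D2:**
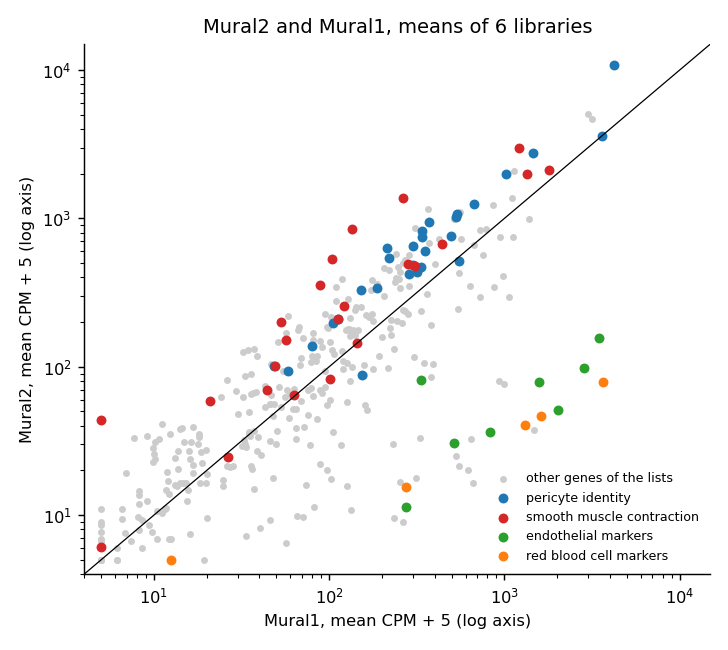
Mean CPM plus 5 over 6 libraries in Mural1 (horizontal, log axis) and Mural2 (vertical, log axis) for the pericyte identity, smooth muscle, endothelial and red blood cell lists, one point per gene, with the diagonal at equality. Pericyte and smooth muscle genes lie on or above the diagonal for the most part, and the endothelial genes lie far below it, their sum being 505 CPM in Mural2 and 11821 CPM in Mural1.

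The transcripts of Acta2, Tagln and Myh11 came from few of the Mural2 cells. Acta2, smooth muscle actin, was at 984 and 1855 CPM in control, 1781 and 1038 CPM in occluded and 918 and 1666 CPM in trained libraries. Tagln was at 841 ± 223 CPM and Myh11, the smooth muscle myosin heavy chain, at 350 ± 107 CPM. Within every condition the 2 libraries differed for Acta2 by more than the condition means did. An Acta2 UMI was found in 9.88% of Mural2 cells, a Tagln UMI in 8.84% and a Myh11 UMI in 10.9%, against 0.594%, 0.277% and 0.713% of EC1 cells at a median depth of 1621 UMIs. Of 769 cells, 662 held none of these UMIs, 39 held 1 or 2, and 68 (8.84%, Wilson 95% interval 7.04–11.1%) held 3 or more. The 68 cells carried 98.5% of all UMIs of the 3 genes, with a median of 35 and a maximum of 155 per cell. All 3 genes were found in 53 of them and 2 genes in 13. At 3 or more UMIs there were also 19 of 158 Mural1 cells (12.03%), 1 of 2524 EC1 cells and 4 of 653 Mes1 cells. After thinning to 500 UMIs 52 Mural2 cells (6.76%) and 4 Mural1 cells (2.53%) still held 3 or more, and before thinning the 68 cells were deeper at a median of 2659 UMIs against 1291 UMIs in cells with none. The limit of 3 was set after the values were seen and cuts a range, with 16 cells between 3 and 9 UMIs and 73 cells at a limit of 2.

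The 68 cells with 3 or more smooth muscle UMIs held less of the pericyte message, with a median of 8712 CPM per cell over the pericyte identity genes against 36842 CPM in the 662 cells with none. Kcnj8 was at 13.7 CPM in the 68 cells and 920 CPM in the 662, and a Kcnj8 UMI was found in 2 of 68 cells, 16 of 39 and 399 of 662. Abcc9 was at 25.1 against 555 CPM, Atp13a5 at 76.1 against 1220 CPM and Vtn at 1462 against 12822 CPM. Pdgfrb was lower as well but remained, at 471 against 1413 CPM, and so were Higd1b (1092 against 3056 CPM) and Rgs5 (1824 against 3842 CPM). Cspg4 (339 against 332 CPM) and Notch3 (357 against 442 CPM) were near equal. Between the sets of cells the difference was thus small for these last genes and large for Kcnj8, Abcc9, Atp13a5 and Vtn. In the other direction Pln, the phospholamban that restrains the calcium pump, was at 1172 against 0.90 CPM, with a UMI in 44 of 68 cells, 0 of 39 and 1 of 662. Cnn1, calponin, was at 231 against 2.53 CPM and Mylk, myosin light chain kinase, at 1904 against 182 CPM. Myl9, the regulatory light chain, was at 6887 CPM in the 68 cells and still at 2163 CPM in the 662. These genes were picked after their values were seen.

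Over lists, 15 of 17 smooth muscle genes other than the 3 that set the limit were higher in the 68 cells in all 6 libraries and 0 lower, with a median of 2.59 on the log2 scale. Of 28 pericyte identity genes 20 were lower in all 6 libraries and 2 higher, Mcam and Des, with a median of −2.04. Among all 1958 genes of at least 100 CPM in either set, 287 were higher (14.7%) and 291 lower (14.9%) in all 6 libraries, and the median was −0.19. The median endothelial, microglial and fibroblast marker level per cell was 0 in both sets.

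**Figure D3:**
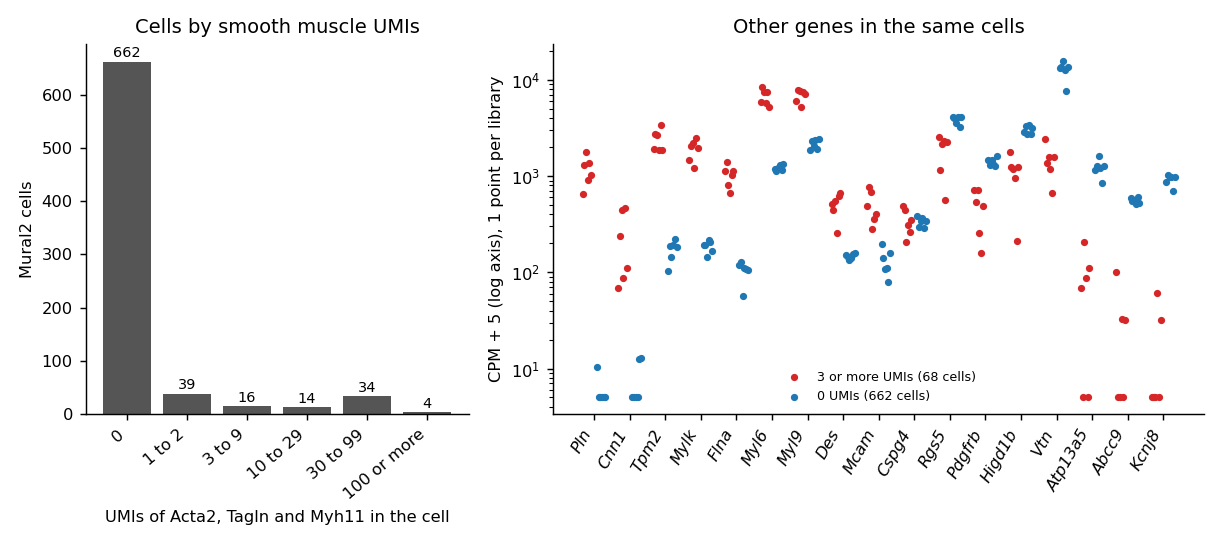
Left, number of Mural2 cells by summed UMIs of Acta2, Tagln and Myh11, with 662 cells at 0 and 68 at 3 or more. Right, CPM plus 5 (log axis) in each of 6 libraries for 17 genes in the 68 cells and in the 662 cells. Pln, Cnn1 and Tpm2 lie higher in the 68 cells, Cspg4 overlaps, and Vtn, Atp13a5, Abcc9 and Kcnj8 lie lower.

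Promoters of these genes are shown because smooth muscle genes are known for CArG boxes, the binding element of serum response factor. The 250 bases before the RefSeq start on GRCm38.p6 were searched on both strands for the consensus, a pair of C, a stretch of A or T and a pair of G, which reads alike on both strands. Capitals mark a box, exact or with 1 letter of the middle different. Acta2 held 2 boxes, at −84 and −34 from the start, each with 1 letter different, on the minus strand of chr19:34255374-34255497. Myl9 held an exact box at −161 and one with 1 letter different at −99, on the plus strand of chr2:156775263-156775414.
Acta2: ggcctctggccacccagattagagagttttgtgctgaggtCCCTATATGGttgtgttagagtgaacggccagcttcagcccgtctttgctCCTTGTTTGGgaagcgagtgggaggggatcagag
Myl9: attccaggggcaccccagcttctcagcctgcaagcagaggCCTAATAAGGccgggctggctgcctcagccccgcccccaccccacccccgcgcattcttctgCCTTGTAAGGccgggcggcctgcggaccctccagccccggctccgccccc

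An exact box was found in 1.62% of 27025 promoters, and an exact or near one in 9.78%. Of the 24 smooth muscle genes 19 had a promoter entry, 3 held an exact box (Myl9, Myl6 and Srf) and 4 an exact or near one. Of the 28 pericyte genes 22 had an entry, 0 held an exact box and 2 a near one (Tbx18 and Nbl1). A match describes these letters alone.

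The share of Mural2 among all annotated cells did not separate the conditions. It was 1.46% (Wilson 95% interval 1.24–1.71%) and 1.63% (1.37–1.94%) in control, 1.19% (0.969–1.47%) and 1.90% (1.64–2.201%) in occluded and 1.20% (1.01–1.43%) and 1.63% (1.35–1.957%) in trained libraries. The occluded libraries were the lowest and the highest of the 6, and library 2 was above library 1 in each condition. In edgeR's quasi-likelihood test over 38 clusters the log2 ratio was 0.01 for occluded against control (95% interval −0.58 to 0.60, adjusted p = 0.978), −0.14 for trained against control (−0.73 to 0.46, adjusted p = 0.785) and −0.15 for trained against occluded (−0.74 to 0.45, adjusted p = 0.762). These tests called 1, 0 and 8 of 38 clusters (2.63%, 0% and 21.1%), and Mural2 was in none of them. Of vascular cells (EC1, EC2, Mural1 and Mural2) Mural2 made up 16.9% and 15.9% in control, 16.5% and 18.5% in occluded and 14.03% and 19.9% in trained libraries. Dissociation sets which cells are recovered, so these shares are of recovered cells, and the intervals cover counting error only.

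The share of Mural2 cells with at least 3 smooth muscle UMIs overlapped between conditions as well. It was 8.90% and 8.73% in control (13 of 146 and 11 of 126 cells), 11.5% and 7.47% in occluded (10 of 87 and 13 of 174) and 6.30% and 11.9% in trained libraries (8 of 127 and 13 of 109). The Wilson intervals of all 6 shares overlapped.

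**Figure D4:**
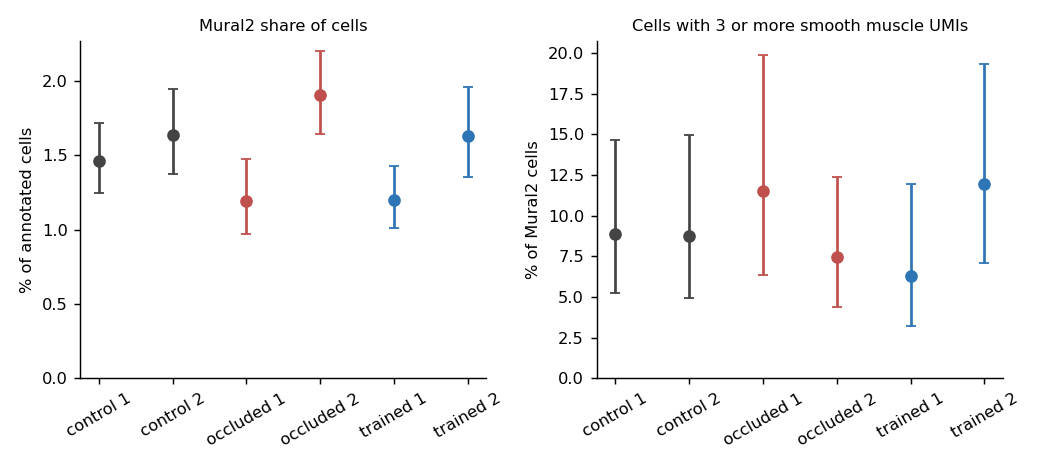
Left, percent of annotated cells in Mural2 by library. Right, percent of Mural2 cells with at least 3 UMIs of Acta2, Tagln and Myh11 by library. Bars through points are Wilson 95% intervals, which cover counting error only; on the left the occluded libraries span 1.19% to 1.90%, and on the right all intervals overlap.

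Occlusion was compared with control over 3960 genes with sufficient UMIs, summed per library over Mural2 cells, by edgeR's quasi-likelihood test with Benjamini-Hochberg adjustment. S100a5 was the gene called, which is 0.0253% of those tested. S100a5 encodes a calcium-binding protein known from olfactory sensory neurons, where its level follows odor activity. It was at 914 and 611 CPM in control, 301 and 107 CPM in occluded and 683 and 380.4 CPM in trained libraries, from 208 and 134, 45 and 25, and 116 and 66 UMIs. Both occluded values lay below both control values, and the log2 fold change was −2.02 ± 0.33 (SE, 95% interval −2.70 to −1.34, adjusted p = 0.0104). DESeq2 gave −1.93 for S100a5 with an adjusted p of 0.9995 and called 0 genes, with 15 at an unadjusted p under 0.05 against 169 (4.27%) by edgeR.

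The fall in S100a5 was not confined to Mural2. S100a5 was highest in N5, a neuron cluster, at 26677 CPM in control, 12265 CPM in occluded and 22167 CPM in trained libraries. In each of the 37 other clusters both occluded libraries lay below both control libraries. Leaving out N5, the other 36 clusters had a median of 583 CPM in control (263–4286), 176 CPM in occluded and 491 CPM in trained libraries, and 13 of these 36 were above Mural2 in control. A UMI was found in 88 of 146 and 79 of 126 control Mural2 cells, 33 of 87 and 18 of 174 occluded cells, and 66 of 127 and 43 of 109 trained cells. Omp, another gene of mature olfactory sensory neurons, was at 48.3 and 9.12 CPM in control, 33.5 and 12.9 CPM in occluded and 41.2 and 23.1 CPM in trained Mural2 libraries. These low levels rest on few UMIs. In N5 the Omp mean was 690 CPM in control, 693 CPM in occluded and 635 CPM in trained libraries. Its mean was lower in occluded than in control libraries in 30 of the 37 clusters other than Mural2, and in 18 both occluded libraries lay below both control libraries. Whether free sensory neuron RNA gives the S100a5 UMIs in Mural2 was not tested.

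**Figure D5:**
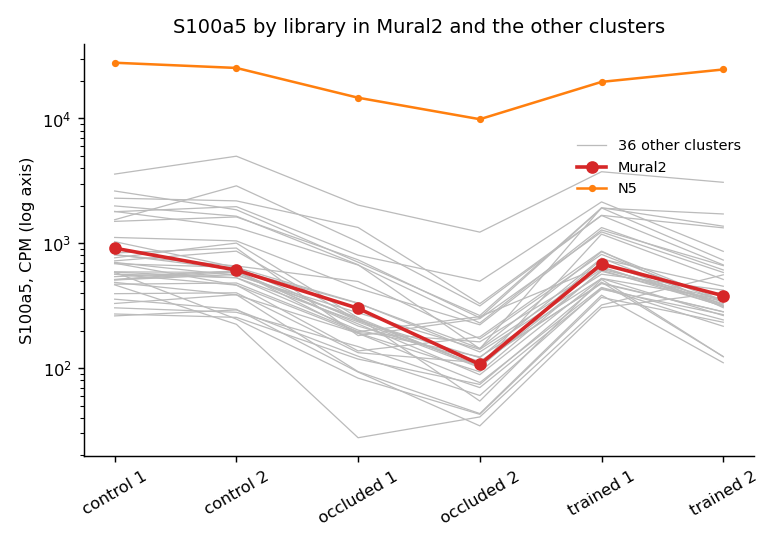
CPM (log axis) of S100a5 in each library, with Mural2 in red, N5 in orange and the other 36 clusters in grey. The occluded libraries lie below the control libraries in Mural2 (301 and 107 against 914 and 611 CPM), in N5 and in every grey cluster.

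No gene of the mural lists passed the test after occlusion. Pdgfrb had a log2 fold change of −0.08 (95% interval −0.45 to 0.29), Acta2 of −0.04 (−0.59 to 0.51) and Kcnj8 of 0.03. Of the 28 pericyte identity genes 0 were called in either direction, with a median of −0.07 against −0.01 over all genes. The same count of 0 held for the 21 smooth muscle genes tested (median −0.04), 9 Notch genes (−0.04), 19 channel and receptor genes (−0.13), 16 transporter genes (0.05), 20 matrix genes (−0.13) and 12 interferon and chemokine genes (0.01). It held too for 7 genes of PDGF, TGF-beta and angiopoietin signalling (−0.02) and 18 of hypoxia and glycolysis (−0.01). The 95% interval of a pericyte gene reached a median of 0.41 to each side.

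The genes next in order of p after occlusion did not pass. C1qa, a complement component of microglia, was at 39.5 and 109 CPM in control, 161 and 292 CPM in occluded and 282 and 196 CPM in trained libraries. Both manipulated conditions lay above control, with 1.64 (95% interval 0.90 to 2.38, adjusted p = 0.233 by edgeR) after occlusion and 1.66 (adjusted p = 0.280) after training, comparisons that share the control libraries. Of 207 C1qa UMIs in Mural2, 153 (73.9%) were in 13 cells that held at least 3 microglial UMIs, a limit that counts C1qa itself. These cells numbered 0 and 5 in control, 1 and 2 in occluded and 4 and 1 in trained libraries. In the occluded libraries they carried 17 of 24 and 56 of 68 C1qa UMIs, and all of them also held at least 3 endothelial UMIs. In the trained libraries 0 of 4 and 1 of 1 did so, and in control library 2 it was 1 of 5. Without the cells that held at least 3 endothelial UMIs the C1qa value was −0.43 after occlusion and 1.31 after training. With cells of at least 1000 UMIs alone the value after occlusion passed (1.92, edgeR adjusted p = 0.0249). Leaving out 1 library gave 1.08 (without control 1) to 2.499 (without control 2) after occlusion. For the value after training the range was 1.10 (without control 1) to 2.52 (without control 2). With only the 662 cells that held no UMI of Acta2, Tagln or Myh11, C1qa passed after training (1.75, edgeR adjusted p = 0.0478). Tyrobp, another microglial gene, had 1.59 (adjusted p = 0.709), Klf2, a flow-responsive factor, 1.77 (adjusted p = 0.916) and Mgp −0.67 (adjusted p = 0.916) in the edgeR test. With 1 library left out, Tyrobp ranged from 1.07 to 2.16, Klf2 from 1.14 to 2.85 and Mgp from −0.90 to −0.43. The microglial marker sum, of which C1qa is itself a member, was 109.8 and 283 CPM in control, 315 and 686 CPM in occluded and 641 and 444 CPM in trained libraries. The part of microglial RNA in the result was not tested.

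Training was compared with control in the same fit, and 0 of 3960 genes were called (0%), with 233 at an unadjusted p under 0.05 (5.88%), against 0 called and 38 unadjusted by DESeq2. Hspa8, a constitutive heat shock chaperone, was at 558 and 706 CPM in control, 562 and 639 CPM in occluded and 1612 and 928 CPM in trained libraries. Both trained libraries lay above the other 4, with a log2 fold change of 0.98 (edgeR adjusted p = 0.280). It was 0.51 without trained library 1 (adjusted p = 0.800) and 1.33 without trained library 2 (adjusted p = 2.4e-07), where the lone trained library is assumed to vary like the others. Its co-chaperone Dnaja1 had 1.00 (adjusted p = 0.406), with 0.63 without trained library 1 and 1.295 without trained library 2. In 28 of the 37 other clusters both trained libraries were above both control libraries for Hspa8, and in 23 for Dnaja1. Cldn5, the endothelial claudin, was at 202 and 255 CPM in control, 127 and 159 CPM in occluded and 124 and 46.1 CPM in trained libraries, with −1.45 (adjusted p = 0.280), and leaving out 1 library gave −2.33 (without trained 1) to −0.90 (without trained 2). Without cells with at least 3 endothelial UMIs, a limit that counts Cldn5 itself, it was 0.31. The basement membrane gene Col4a1 was at 360.3 and 424 CPM in control, 274 and 360.2 CPM in occluded and 159 and 254 CPM in trained libraries, with −0.95 (adjusted p = 0.406). Both trained values of Col4a1 were below the other 4.

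The pericyte identity genes had a median of −0.21 after training against −0.01 over all genes, with 0 of 28 called and 6 lower at an unadjusted p under 0.05 (116 of 3960 genes, 2.93%, over the whole table): Vtn, Cox4i2, Anpep, Art3, Slc19a1 and Sod3. Their sum was 33588 and 33418 CPM in control, 33952 and 32744 CPM in occluded and 24819 and 32567 CPM in trained libraries, so trained library 1 stood apart and trained library 2 lay just below the other 4. Vtn had −0.39 (95% interval −0.73 to −0.05, edgeR adjusted p = 0.778) and Pdgfrb −0.06 (−0.43 to 0.31). Immediate early and stress genes had a median of 0.34, with 0 called and 6 of 26 higher at an unadjusted p under 0.05 (117 of 3960 genes, 2.95%), among them Hsp90ab1 and Hspb1. Their sum was 4240.3 and 5096 CPM in control, 5623 and 4507 CPM in occluded and 7779 and 5787 CPM in trained libraries. Clock and glucocorticoid genes had a median of 0.47 with 0 called and 12 of 12 above 0 (49.2% of all genes tested). The 95% interval of such a gene reached a median of 0.84 to each side. All 12 were measured in the same libraries, so they are not separate observations. Dbp, a factor of the circadian clock, was at 114 and 132 CPM in control, 147 and 142 CPM in occluded and 265 and 225 CPM in trained libraries (0.96, edgeR adjusted p = 0.580). In 4 of the 37 other clusters both trained libraries were above both control libraries for Dbp, and in 5 both were below. No source used here gives the time of day of dissection. The other lists had medians of 0.10 (smooth muscle), −0.08 (PDGF, TGF-beta and angiopoietin), −0.05 (Notch), −0.07 (channels), −0.13 (transporters), −0.23 (matrix), −0.01 (interferon and chemokine) and −0.05 (hypoxia and glycolysis), each with 0 called.

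Trained and occluded Mural2 cells were then compared directly, and 0 of 3960 genes were called (0%), with 230 at an unadjusted p under 0.05 (5.81%) and 37 by DESeq2, which called 0. Timp3, an inhibitor of matrix metalloproteinases, was at 187 and 111 CPM in occluded and 412 and 282 CPM in trained libraries, with control between them at 211 and 232 CPM. Its log2 fold change was 1.27 and that of Hspa8 1.07, both at an edgeR adjusted p of 0.187. With 1 library left out, Timp3 ranged from 0.88 (without occluded 2) to 1.615 (without occluded 1). Hspa8 ranged from 0.60 (without trained 1) to 1.42 (without trained 2). Dnaja1 had 1.15 (adjusted p = 0.250), S100a5 1.47 (adjusted p = 0.270) and Crebbp, a transcriptional coactivator, 1.43 (adjusted p = 0.311). With library number in the fit as a replicate block S100a5 passed (1.44, edgeR adjusted p = 0.0181). In each condition S100a5 was lower in library 2 than in library 1. Leaving out 1 library moved S100a5 from 0.81 (without occluded 2) to 2.29 (without occluded 1). Pdgfrb had 0.02 (95% interval −0.36 to 0.39). Each mural list again had 0 called, with medians from −0.11 for pericyte identity to 0.06 for smooth muscle. Clock and glucocorticoid genes had a median of 0.57 and immediate early and stress genes of 0.16, against 0.01 over all genes, also with 0 called.

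Libraries 2 were also compared with libraries 1, with condition in the fit. The test called 3 genes (0.0758%), all sex-linked, with 193 at an unadjusted p under 0.05 (4.87%). Xist and Tsix, which act in X inactivation, were higher in libraries 2 (0.0505% of those tested) and the Y-linked Ddx3y was lower. Xist had 329, 438 and 295 UMIs in the libraries 2 of control, occluded and trained mice and 0 in the libraries 1, and Ddx3y had 23, 15 and 17 UMIs in the libraries 1 and 0 in the libraries 2. Tsix is transcribed across Xist on the other strand, so its count of 26, 20 and 18 UMIs is uncertain without stated strand use. The sex of the pools was thus as the study states in all 6 libraries. S100a5 had −0.88 at an edgeR adjusted p of 0.0514. Pdgfrb had −0.05.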

How the data were processed

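The deposited table holds raw UMI counts per gene and cell, which the authors made with Cell Ranger 2.0.0 and analysed with Seurat 2.2.1 (build mm10, per the submitters' processing notes), and a deposited annotation gives library, cluster and the mitochondrial fraction per cell. The study's methods kept cells with at least 200 genes and removed doublets. Of 52549 barcodes, 1123 carried no cluster and entered no comparison.

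Mural2 counts were summed per library. Genes were filtered with filterByExpr, scaled by TMM and fitted over all 6 libraries with edgeR 4.0.16 (limma 3.58.1, R 4.3.3), giving quasi-likelihood tests called at a Benjamini-Hochberg adjusted p of 0.05. The common biological coefficient of variation was 0.131. DESeq2 1.42.0, other scaling and filters, cells with at least 1000 UMIs, cells with few endothelial UMIs, Mural1 added, a replicate block and leaving out each library were alternatives. Another, without cells with smooth muscle UMIs, was chosen after seeing the data. It left out every cell with any UMI of Acta2, Tagln or Myh11. Levels are CPM over all genes with a pseudocount of 5 CPM on the log2 scale, and shares carry Wilson 95% intervals (Python 3.11.15, numpy 2.4.6, pandas 2.3.3, scipy 1.17.1). Thinned cells were drawn to 500 UMIs.

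Named genes were the 25 with the largest ratio to clusters outside the mural ones at 100 CPM or more, the 10 furthest each way from Mural1, the called genes or else the 5 of smallest p per comparison, Pdgfrb, and up to 4 per list. Heyl, Dbp, the genes behind the 6 unadjusted pericyte values and those of the smooth muscle cells were named after their values were seen. The members and lists were chosen with earlier results of these data known. Myocd, Kcnj11, Avpr1a and Cebpd were not analysed here. RefSeq promoters (GRCm38.p6) were matched by symbol, and Tagln, Myh11 and Pdgfrb had no entry. Results that rest on items withheld for evaluation are not reported here.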

Additional observations from a re-analysis of the deposited data

Results flagged for a closer look

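The share of Mural2 among annotated cells moved in opposite directions in the 2 numbered libraries. Occluded minus control was −0.267 percentage points in the libraries 1, which pooled males, and 0.267 percentage points in the libraries 2, which pooled females. Trained minus occluded was 0.0078 percentage points in the libraries 1 and −0.275 percentage points in the libraries 2. Each value compares 1 library with 1 library, so the difference between the numbers was not tested.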

How the results depend on the processing

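The S100a5 call after occlusion held in every setting but DESeq2 (−1.93), at −2.84 to −1.36 when 1 library was left out. The counts of called genes were less stable. After occlusion, 1 became 2 with cells of at least 1000 UMIs, without cells with endothelial UMIs or without cells with smooth muscle UMIs, 4 with Mural1 added, 0 with DESeq2 and 1 to 11 without 1 library (11 without control 2, trained 1 or trained 2, 10 without occluded 1, 7 without occluded 2). For training against control, 0 became 3 with Mural1, 1 without cells with smooth muscle UMIs and 0 to 27 without 1 library (27 without trained 2, 11 without control 2, 9 without either occluded library, 7 without trained 1). For training against occlusion, 0 became 2 with Mural1 and 0 to 38 without 1 library (38 without trained 2, 8 and 7 without control 2 and 1, 4 and 3 without occluded 2 and 1). For library number, 3 became 5 with DESeq2 size factors, with total counts or without cells with endothelial UMIs, 8 with no filter beyond 10 UMIs, 11 with Mural1, 9 without cells with smooth muscle UMIs and 5 to 12 without 1 library (12 without trained 1, 11 without trained 2, 10 without either occluded library, 8 and 5 without control 1 and 2). The library left alone in its condition is assumed to vary like the others. That library also holds 1 sex, while the other conditions hold both, so these settings partly confound sex with condition. Xist was among the genes called between conditions without control 2, occluded 1, occluded 2, trained 1 or trained 2. What else lay behind these shifts was not tested.

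Same-numbered libraries did not deviate together (r of 0.004, 0.034 and −0.005 over 3957 genes, sex-linked genes left out), so the numbers, which carry the sex of the pool, were not taken as pairs. A correlation over so many genes cannot decide this for a single gene. S100a5 after occlusion was −2.02 with the replicate block, at an edgeR adjusted p of 2.6e-05 against 0.0104 without it. With the replicate block, training against occlusion called 1 gene, S100a5 (1.44), and the occluded share became −0.028.

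The Mural2 share changed sign at values near 0. Occluded against control was −0.057 with TMM factors, −0.23 with cells of at least 1000 UMIs and −0.37 to 0.30 without 1 library. Trained against control was 0.027 among vascular cells and −0.36 to 0.073 without 1 library. Trained against occluded was 0.0079 with TMM factors, 0.13 with cells of at least 1000 UMIs and −0.44 to 0.23 without 1 library. No setting passed the test.

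Of 357 values for 24 pairings of a gene with a comparison, 271 kept their direction and side of the threshold, 70 newly passed it, 1 (S100a5 with DESeq2) no longer passed and 15 changed sign. Most of the new passes came from leaving out 1 library, as for C1qa, Tyrobp, Klf2, Mgp, Hspa8, Dnaja1, Cldn5, Col4a1 and Timp3. Without cells with endothelial UMIs C1qa after occlusion was −0.43 and Cldn5 after training 0.31. Pdgfrb after occlusion was −0.19 to 0.018 without 1 library. After training it was 0.035 with cells of at least 1000 UMIs, 0.053 without cells with smooth muscle UMIs and −0.20 to 0.059 without 1 library. Between training and occlusion it was −0.12 to 0.14, and between library numbers 0.073 with Mural1 and −0.18 to 0.039. With 769 cells in 6 libraries and a median of 1349 UMIs per cell, genes of few UMIs could not be tested.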

Other observations

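Among the 1123 barcodes that carry no cluster in the annotation, 2 (0.178%) held at least 3 UMIs of the pericyte genes Kcnj8, Higd1b, Atp13a5, Ndufa4l2 and Cox4i2. The same level was met by 88.2% of Mural2 cells, 1.98% of EC1 cells and 0.0958% of Astro1 cells. Both barcodes also held at least 3 endothelial UMIs, and their median depth was 80459.5 UMIs against 1349 UMIs in Mural2. The barcodes without a cluster are assigned to no library here.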
